A study of Canis lupus familiaris with 4 samples.

Results

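The genes described here are 40 genes of the unfolded protein response and of the ATF4 stress response in MDCKII cells, an established epithelial line from dog kidney. They were taken by gene symbol: every probe set of the array whose annotated symbol is one of the 40 was used. The array held 82 such probe sets of 38 genes, out of 42924 probe sets and 15115 genes with a single symbol. CRELD2 and ATF5 had no probe set under their symbols. A gene was read from its brightest probe set, and a difference was taken only where that probe set reached the median of all values, an intensity of 46.3, in at least 1 array. This floor left 31 of the 38 genes, and 9834 genes of the whole array. By role they were 13 endoplasmic reticulum (ER) chaperones and folding enzymes, 3 genes of ER-associated degradation, 5 sensors and transcription factors, 3 stress targets of ATF4 and 7 amino acid targets of ATF4.

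Gene expression was measured on 4 Affymetrix arrays, 1 per group. The groups were cells labelled as HIF1A knockdown (KD) in hypoxia, wild type for HIF1A (WT) in hypoxia, KD in normoxia and WT in normoxia. Every culture had 24 h of normoxia before a further 24 h in hypoxia or normoxia. Neither the oxygen level nor the method of the knockdown is stated in the labels. The study compared the responses to low oxygen in cells with and without HIF1A, the oxygen-regulated subunit of the transcription factor HIF-1.

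The unfolded protein response is set off when proteins that enter the ER fail to fold. The sensors IRE1 (gene ERN1), PERK (EIF2AK3) and ATF6 in the ER membrane then raise chaperones, disulfide enzymes and the machinery that returns misfolded proteins to the cytosol for degradation. PERK and other kinases also phosphorylate the initiation factor eIF2, which favours translation of ATF4 mRNA, and the ATF4 protein turns on genes of amino acid synthesis, amino acid import and stress signalling. Much of the control of ATF4 and XBP1 therefore lies in translation, splicing and protein turnover, which intensities of mRNA do not show.

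HIF1A itself went against the knockdown label, so the groups are called by their labels throughout and each direction is that of the labels. HIF1A read 625 in the array labelled KD hypoxia, 675 in the array labelled WT hypoxia, 3435 in the array labelled KD normoxia and 3651 in the array labelled WT normoxia. It was low in both hypoxia arrays and nearly equal between the KD and WT labels. An additive limma model over the 4 arrays gave a hypoxia term of -2.42 (SE 0.08, adjusted p = 4.44e-07) and a genotype term of -0.10 (adjusted p = 0.494). A list of 20 hypoxia and glycolysis genes, taken as a whole, was not higher under the hypoxia label. Hypoxia minus normoxia had a median of -0.78 with 19 of 20 lower under the KD label, against 47.5% of all genes. Under the WT label the median was -0.03 with 13 of 20 lower, against 47.6% of all genes. The arrays were alike in brightness, with median intensities of 45.6 to 47.1 and correlations across probe sets of 0.982 to 0.987. Epithelial markers summed to 35601 to 36786 per array, with EPCAM, KRT8 and KRT18 above the floor, whereas CDH1, which encodes E-cadherin, read 17.8 to 41.2 and stayed below it. Leukocyte markers summed to 351 to 424 and endothelial markers to 194 to 268. Fibroblast and mesenchymal markers summed to 16830 to 17458, although only 2 of 9, including VIM, passed the floor.

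The stress genes as a whole differed little between the 4 arrays. The median distance between a gene's highest and lowest array was 0.27 on the log2 scale over the 31 genes above the floor, against 0.37 over all 9834 genes and 0.20 over the 994 genes at least as bright as the middle one of the 31. There are 4 pairs of arrays that differ in 1 label. On the scale of log2(intensity + 16), none of the 31 was 2-fold apart in any of them, against 3.38% of all genes. EDEM1 came closest, at 0.98 for KD normoxia minus WT normoxia, and passed 2-fold with a pseudocount of 1 (1.12). At 1.5-fold, 3 genes stood out: ERO1A, an oxidase of the folding machinery, EDEM1 of ER-associated degradation, and the transcription factor ATF3. All fold changes and differences here are on the scale of log2(intensity + 16), which understates the change of dim genes. With 1 array per group no pair has a replicate check, and in such a culture fewer expressing cells and less RNA per cell cannot be told apart.

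Pair by pair, the 1.5-fold counts were as follows. For KD hypoxia minus KD normoxia, ATF3 was higher (3.41% of all genes were that much higher) and ERO1A was lower (4.05% of all genes were that much lower). For WT hypoxia minus WT normoxia, 0 of 31 were higher and 0 were lower, against 3.34% and 2.88% of all genes. For KD hypoxia minus WT hypoxia, ATF3 was higher (2.74% of all genes) and 0 of 31 were lower (2.59%). For KD normoxia minus WT normoxia, ERO1A and EDEM1 were higher (3.76% of all genes) and 0 of 31 were lower (2.82%). These shares are 0 to 2 of 31 genes and stand near those of all genes.

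The limma model, the only test that the 4 arrays allow, called few of these genes. In its hypoxia term 1 of 31 rose, ATF3, and 0 fell, against 4.72% and 4.17% of all genes. In its genotype term 2 of 31 rose, ATF3 and PDIA3, and 0 fell, against 2.94% and 2.43% of all genes. At an unadjusted p under 0.05 there were 9 of 31 for hypoxia and 14 of 31 for genotype, against 23.7% and 22.3% of all genes. The model has 1 residual degree of freedom and draws its variance mostly from other genes of like intensity, so its p-values do not reflect the spread between cultures. Without the intensity trend of that variance, or without the floor, it called 0 of these genes in either term.

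**Figure D1:**
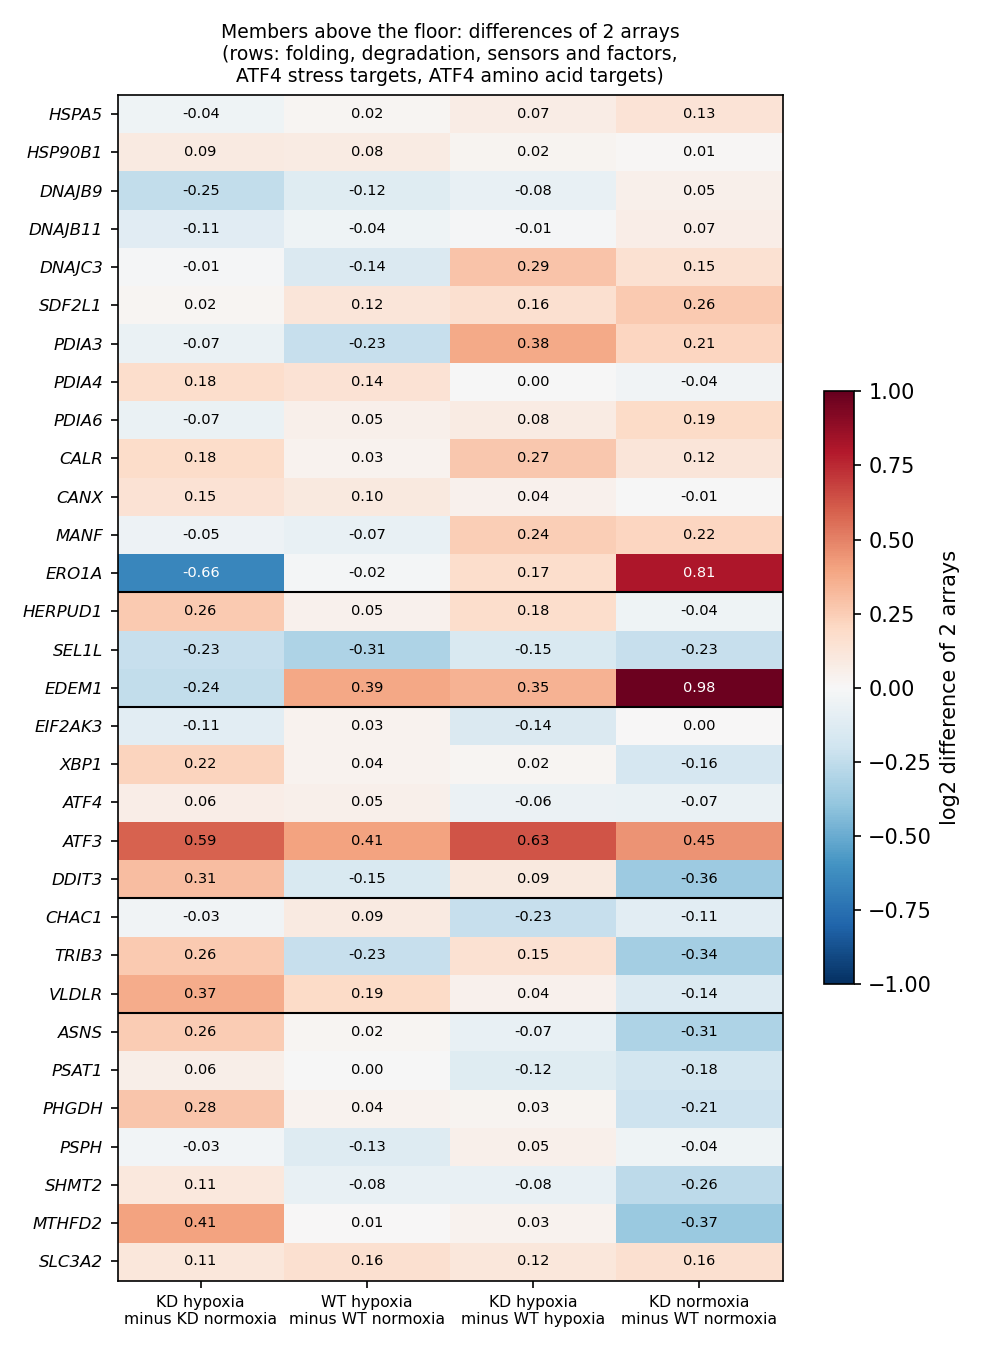
Differences of log2(intensity + 16) between 2 arrays for the 31 genes above the floor, in rows by role, with the KD and WT responses to labelled hypoxia in the left columns and the labelled KD minus WT differences in the right columns. Most cells lie near 0, and the deepest colours belong to ERO1A (0.81 and -0.66), EDEM1 (0.98) and ATF3 (0.41 to 0.63).

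Most ER chaperones and folding enzymes were slightly higher under the KD label. Of 13 above the floor, 10 were higher in KD hypoxia than in WT hypoxia, against 47.9% of all genes (median 0.08, against -0.01 for all genes). In normoxia 11 of 13 were higher under the KD label, against 48.4% of all genes (median 0.13, against -0.01). For 8 of 13 the highest value was in the array labelled KD normoxia, against 26.4% of all genes. The oxygen label gave no common direction. Hypoxia minus normoxia had a median of -0.04 with 5 of 13 higher under the KD label, and of 0.02 with 7 of 13 higher under the WT label. Of all genes, 52.5% and 52.4% were higher.

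HSPA5, the ER member of the HSP70 family that binds unfolded chains and holds the sensors inactive, read 9921 in KD hypoxia, 9427 in WT hypoxia, 10198 in KD normoxia and 9293 in WT normoxia. In this brightest probe set HSPA5 was a little higher in both KD arrays, and its 4 pair differences lay between -0.04 and 0.13. Its second probe set followed the oxygen label, with hypoxia minus normoxia of 0.24 under the KD label and 0.12 under the WT label. Labelled KD minus WT was 0.13 in hypoxia and 0.01 in normoxia there. HSP90B1, the ER form of HSP90, read 9421, 9266, 8835 and 8772 in the same order of arrays. Both hypoxia arrays were above both normoxia arrays, by 0.09 under the KD label and 0.08 under the WT label, and the hypoxia term was 0.09 (adjusted p = 0.295). DNAJC3, a J-domain co-chaperone that stimulates HSPA5, read 1064 in KD hypoxia, 868 in WT hypoxia, 1072 in KD normoxia and 961 in WT normoxia, with both KD arrays above both WT arrays. DNAJB9 and DNAJB11, of the same co-chaperone family, differed by at most 0.25 and 0.11 in any pair. SDF2L1, which acts in a complex with DNAJB11, was higher under the KD label by 0.16 in hypoxia and 0.26 in normoxia, with values of 1308 to 1597. Its other probe sets gave 0.05 and 0.03 in hypoxia, and 0.16 and -0.03 in normoxia.

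PDIA3, a disulfide isomerase that works on glycoproteins held by calreticulin and calnexin, was the chaperone-group gene that passed the test. It read 4215 in KD hypoxia, 3244 in WT hypoxia, 4417 in KD normoxia and 3807 in WT normoxia. Both KD arrays were above both WT arrays, and PDIA3 rose in the genotype term by 0.29 (SE 0.07, adjusted p = 0.0358). Its dimmer probe set gave 0.27 in hypoxia and 0.00 in normoxia for labelled KD minus WT, and the call was lost when the median over probe sets was used (0.22). MANF, a small secreted protein that binds HSPA5, read 4089, 3455, 4234 and 3638 in the order used above, again higher in both KD arrays. Its genotype term was 0.23 (SE 0.06) and missed the threshold (adjusted p = 0.0588).

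The remaining folding genes differed by less than 0.30 in each pair. PDIA6, another isomerase, read 10082 in KD hypoxia, 9546 in WT hypoxia, 10557 in KD normoxia and 9227 in WT normoxia, and its 4 probe sets were all higher in KD normoxia than in WT normoxia, by 0.09 to 0.40. CALR, the calcium-binding lectin chaperone calreticulin, was higher under the KD label by 0.27 in hypoxia and 0.12 in normoxia, with values of 3789 to 4683. The dimmer CALR probe sets ranged from -0.04 to 0.38 in hypoxia and from -0.07 to 0.22 in normoxia. CANX, its membrane-bound counterpart calnexin, gave 0.04 and -0.01 in those pairs, while its dimmer probe sets ranged up to 0.50 and 0.30. PDIA4 followed the oxygen label in its brightest probe set, with 5681 in KD hypoxia, 5697 in WT hypoxia, 5026 in KD normoxia and 5164 in WT normoxia, and its hypoxia term was 0.16 (adjusted p = 0.108). Its second probe set gave -0.15 for hypoxia minus normoxia under the KD label and 0.04 under the WT label. HYOU1, a nucleotide exchange factor for HSPA5, lay below the floor in every array (7.14 to 29.0), so no difference is given.

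**Figure D2:**
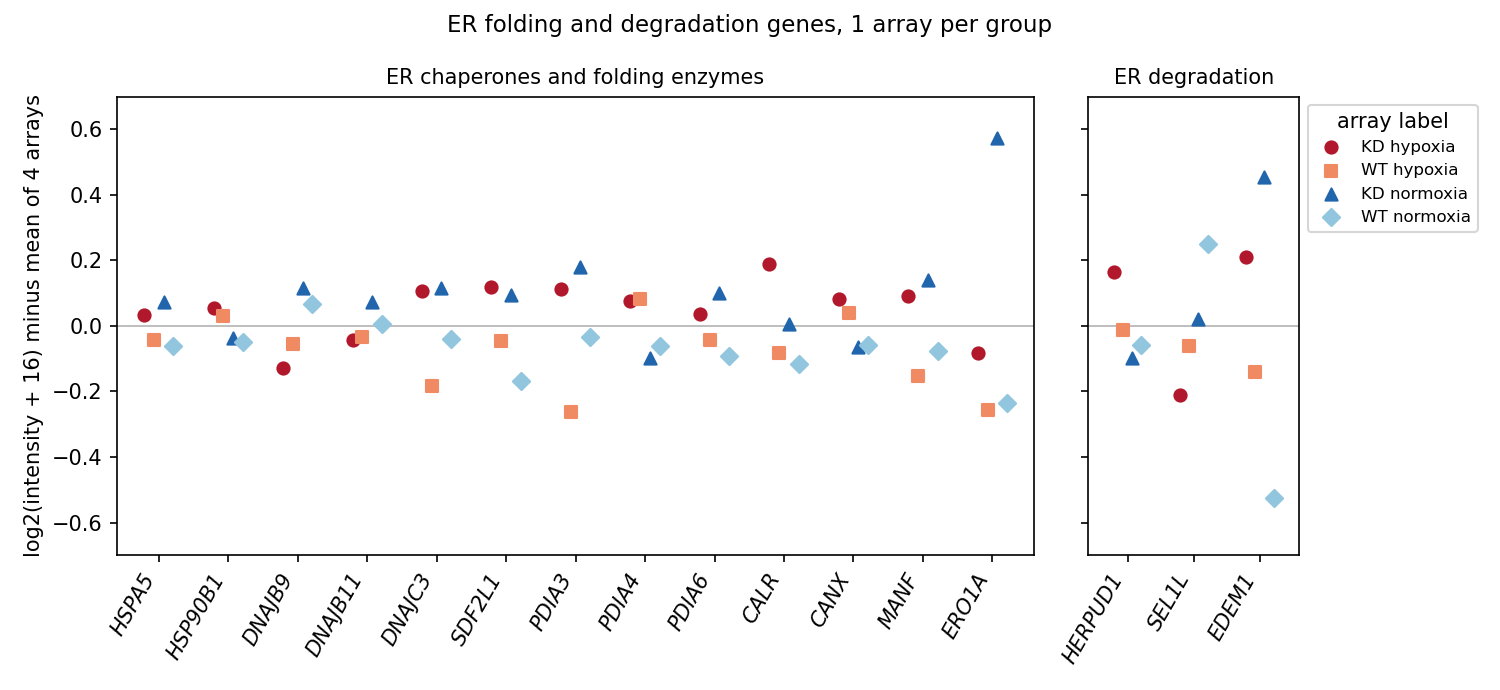
Values per array of the ER folding genes (left) and ER-associated degradation genes (right) above the floor, as log2(intensity + 16) minus the gene's mean over the 4 arrays, with a symbol for each array label. ERO1A stands out by a high array labelled KD normoxia, and EDEM1 by a high KD normoxia and a low WT normoxia array, while most folding genes lie within 0.2 of their mean.

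ERO1A, which reoxidises disulfide isomerases and is also a known HIF-1 target, differed in a single array. It read 1719 in KD hypoxia, 1523 in WT hypoxia, 2717 in KD normoxia and 1545 in WT normoxia. The array labelled KD normoxia was apart from the other 3, which lay close together. Labelled KD minus WT was 0.17 in hypoxia and 0.81 in normoxia, and hypoxia minus normoxia was -0.66 under the KD label and -0.02 under the WT label. ERO1A had 1 probe set, and its genotype term of 0.49 (SE 0.13, adjusted p = 0.0599) and hypoxia term of -0.34 (adjusted p = 0.146) missed the threshold. The list of 20 hypoxia and glycolysis genes was high in the same array. Of these, 19 were higher in KD normoxia than in WT normoxia (median 1.16), against 48.4% of all genes. For 18 of 20 the highest value was there, against 26.4% of all genes. That list was chosen with earlier results of these data known. The part of that list's difference in the ERO1A result was not tested. VEGFA, a growth factor with both hypoxia and ER stress annotations, read 2379.5 in KD hypoxia, 2281 in WT hypoxia, 2428 in KD normoxia and 2326 in WT normoxia, and all its pair differences were within 0.06.

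Genes of ER-associated degradation showed no shared direction. EDEM1, which recognises trimmed glycans on misfolded glycoproteins, read 131 in KD hypoxia, 99.0 in WT hypoxia, 158 in KD normoxia and 72.0 in WT normoxia. EDEM1 was higher in each KD array than in each WT array, with differences of 0.35 in hypoxia and 0.98 in normoxia. The response to labelled hypoxia had opposite signs, -0.24 under the KD label and 0.39 under the WT label. EDEM1 had 1 dim probe set, its genotype term of 0.66 (SE 0.17) missed the threshold (adjusted p = 0.0600), and its normoxia difference moved between 0.70 and 1.12 with the pseudocount.

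SEL1L, the adaptor of the ubiquitin ligase that handles luminal proteins, was lower under the KD label and lower under the hypoxia label. Its values were 1302 in KD hypoxia, 1445 in WT hypoxia, 1533 in KD normoxia and 1798 in WT normoxia. All 3 SEL1L probe sets were lower in both labelled KD minus WT pairs, by -0.37 to -0.15 in hypoxia and -0.29 to -0.23 in normoxia. Its hypoxia term was -0.27 (SE 0.08) and missed the threshold (adjusted p = 0.0642), which it passed in 4 of 11 settings. HERPUD1, a scaffold of the same complex, read 4652 in KD hypoxia, 4114 in WT hypoxia, 3879 in KD normoxia and 3987 in WT normoxia. Its second probe set had the same order, with 0.58 for hypoxia minus normoxia under the KD label against 0.26 for the first. SYVN1, the ligase itself, lay below the floor in every array (25.0 to 34.9).

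Among sensors and transcription factors ATF3 was the gene that changed. ATF3, a stress-induced factor downstream of ATF4, read 229 in KD hypoxia, 143 in WT hypoxia, 147 in KD normoxia and 104 in WT normoxia. The array with both labels was the highest, the array with neither was the lowest, and the other 2 were nearly equal. Hypoxia minus normoxia was 0.59 under the KD label and 0.41 under the WT label, and labelled KD minus WT was 0.63 in hypoxia and 0.45 in normoxia. ATF3 rose in the hypoxia term by 0.50 (SE 0.13, adjusted p = 0.0434) and in the genotype term by 0.54 (SE 0.13, adjusted p = 0.0449). It had 1 probe set, and both calls ended without the floor or without the intensity trend.

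The mRNAs at the head of the response hardly differed. ATF4 read 8866 in KD hypoxia, 9220.4 in WT hypoxia, 8481 in KD normoxia and 8883 in WT normoxia, and its pair differences lay between -0.07 and 0.06. XBP1, the factor whose mRNA is spliced by IRE1, read 5168, 5087, 4427 and 4964 in that order of arrays. XBP1 was lowest in KD normoxia, with 0.22 for hypoxia minus normoxia under the KD label and 0.04 under the WT label, but its second probe set gave -0.09 and 0.15. EIF2AK3 read 179 to 199.8, with pair differences of at most 0.14. ERN1 (36.7 to 39.7) and ATF6 (28.6 to 42.0) lay below the floor in every array.

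DDIT3, the pro-apoptotic factor CHOP, and TRIB3, a pseudokinase induced by ATF4 and CHOP, had a like pattern. DDIT3 read 486 in KD hypoxia, 454 in WT hypoxia, 390 in KD normoxia and 505 in WT normoxia. TRIB3 read 154 in KD hypoxia, 138 in WT hypoxia, 126 in KD normoxia and 164 in WT normoxia. Both genes were lowest in KD normoxia and highest in WT normoxia. Hypoxia minus normoxia was 0.31 for DDIT3 and 0.26 for TRIB3 under the KD label, and -0.15 and -0.23 under the WT label. Neither passed the test in either term, with adjusted p from 0.568 to 0.962.

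The other stress targets of ATF4 were VLDLR, CHAC1 and SESN2. VLDLR, a lipoprotein receptor that is induced by both PERK signalling and hypoxia, read 478 in KD hypoxia, 464 in WT hypoxia, 366 in KD normoxia and 404 in WT normoxia. Both hypoxia arrays were above both normoxia arrays, as they were in its second probe set, and the hypoxia term was 0.28 (SE 0.10, adjusted p = 0.132). CHAC1, which breaks down glutathione, read 79.6 in KD hypoxia, 96.2 in WT hypoxia, 81.7 in KD normoxia and 89.2 in WT normoxia. Its other probe set read 71.7, 40.7, 38.7 and 49.0 in that order, below the floor in 2 arrays, so the 2 probe sets differ in which array is highest. SESN2, a stress-induced inhibitor of mTORC1, lay below the floor in every array (15.4 to 38.4).

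The amino acid targets of ATF4 were lower in the array labelled KD normoxia. Of 7 above the floor, 6 were lower in KD normoxia than in WT normoxia, against 51.6% of all genes (median -0.21, against -0.01 for all genes). For 5 of 7 the lowest value of the 4 arrays was in KD normoxia. The lowest value fell in that array for 31% of all genes and for 41.3% of the 994 genes at least as bright as the middle stress gene, so brightness moves with this count. Over those bright genes the median of labelled KD minus WT in normoxia was -0.02, and 56.2% of them were lower. In hypoxia the labels differed little in the brightest probe sets, with 4 of 7 higher under KD (median 0.03). Over the probe sets above the floor in all 4 arrays, 13 of 18 were lower under KD in hypoxia (median -0.10). Hypoxia minus normoxia had a median of 0.11 with 6 of 7 higher under the KD label, and of 0.01 with 4 of 7 higher under the WT label. Of all genes, 52.5% and 52.4% were higher. None of the 7 passed the test in either term, and the smallest adjusted p were 0.159 for hypoxia and 0.0890 for genotype. Under quantile scaling and under the median over probe sets, ASNS and PSAT1 passed as lower in the genotype term.

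ASNS, which makes asparagine and is a standard readout of ATF4, read 8917 in KD hypoxia, 9374 in WT hypoxia, 7463 in KD normoxia and 9233 in WT normoxia. The array labelled KD normoxia was the low one, by -0.31 against WT normoxia. All 3 ASNS probe sets placed it lowest, with -0.37 to -0.31 for that pair.

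The serine synthesis enzymes PHGDH, PSAT1 and PSPH act in sequence on a glycolytic intermediate. PHGDH, the entry enzyme, read 8635 in KD hypoxia, 8456 in WT hypoxia, 7123 in KD normoxia and 8246 in WT normoxia. PSAT1, the transaminase, read 9635 in KD hypoxia, 10462 in WT hypoxia, 9233 in KD normoxia and 10468 in WT normoxia. Both were lowest in KD normoxia in their brightest probe sets, and PSAT1 was lower in both KD arrays than in both WT arrays. The dimmer PHGDH probe sets gave -0.28 to -0.06 for labelled KD minus WT in normoxia, against -0.21 in the brightest. In hypoxia they gave -0.45 to -0.14, against 0.03. Among them, 1 was lowest in KD hypoxia (658, against 694 in KD normoxia). The genotype term of PSAT1 was -0.15 (SE 0.05, adjusted p = 0.0890). Its dimmer probe sets gave wider differences between KD normoxia and WT normoxia, -0.61 and -0.47 against -0.18. PSPH, the phosphatase of the last step, read 2718 to 2966 and was at -0.04 for that pair, with -0.39 in its second probe set.

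The mitochondrial folate enzymes SHMT2 and MTHFD2, which take one-carbon units from serine, had the same low array in their brightest probe sets. SHMT2 read 4212 in KD hypoxia, 4440.3 in WT hypoxia, 3907 in KD normoxia and 4688 in WT normoxia. Its dimmer probe set was lowest in KD hypoxia, with 219 there, 299 in WT hypoxia, 272 in KD normoxia and 373 in WT normoxia. MTHFD2 read 1299 in KD hypoxia, 1271 in WT hypoxia, 977 in KD normoxia and 1266 in WT normoxia. For MTHFD2 the other 3 arrays were almost equal, so hypoxia minus normoxia was 0.41 under the KD label and 0.01 under the WT label. Its second probe set gave 0.44 and -0.05. The hypoxia term of MTHFD2 was 0.21 (adjusted p = 0.278).

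The amino acid transporter genes of the group were dim. SLC3A2, the heavy chain that partners several transporters, read 112 in KD hypoxia, 102 in WT hypoxia, 102 in KD normoxia and 89.6 in WT normoxia. It was the 1 amino acid target of the 7 that was higher in KD normoxia than in WT normoxia (0.16), and it was lowest in WT normoxia. Its light chains SLC7A11, a cystine importer, and SLC7A5, an importer of large neutral amino acids, lay below the floor in every array, at 27.5 to 43.3 and 31.6 to 44.2.

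**Figure D3:**
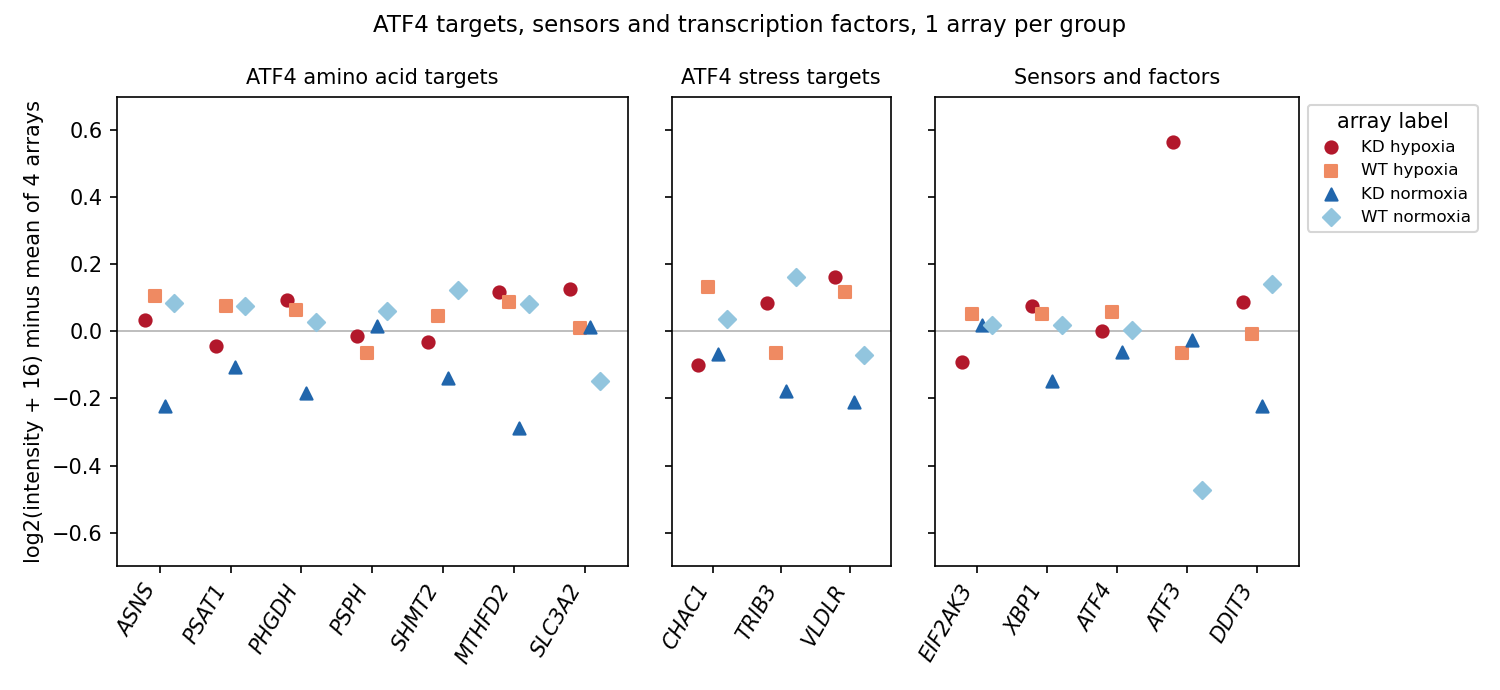
Values per array of the ATF4 targets, sensors and transcription factors above the floor, as log2(intensity + 16) minus the gene's mean over the 4 arrays, with a symbol for each array label. The array labelled KD normoxia is the lowest for ASNS, PSAT1, PHGDH, SHMT2, MTHFD2, TRIB3, VLDLR, XBP1, ATF4 and DDIT3, and ATF3 has the widest spread.

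The separate probe sets of each gene were compared for the pair of normoxia arrays. Of 18 probe sets of the amino acid targets above the floor in all 4 arrays, 17 were lower in KD normoxia than in WT normoxia (median -0.29). Of 33 probe sets of the chaperones and folding enzymes, 26 were higher (median 0.12). In hypoxia 13 of the 18 were lower under the KD label (median -0.10) although the brightest probe sets gave 4 of 7 genes higher, and 26 of the 33 were higher (median 0.08). Probe sets of 1 gene share their sample, so they are no replicates of a condition.

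**Figure D4:**
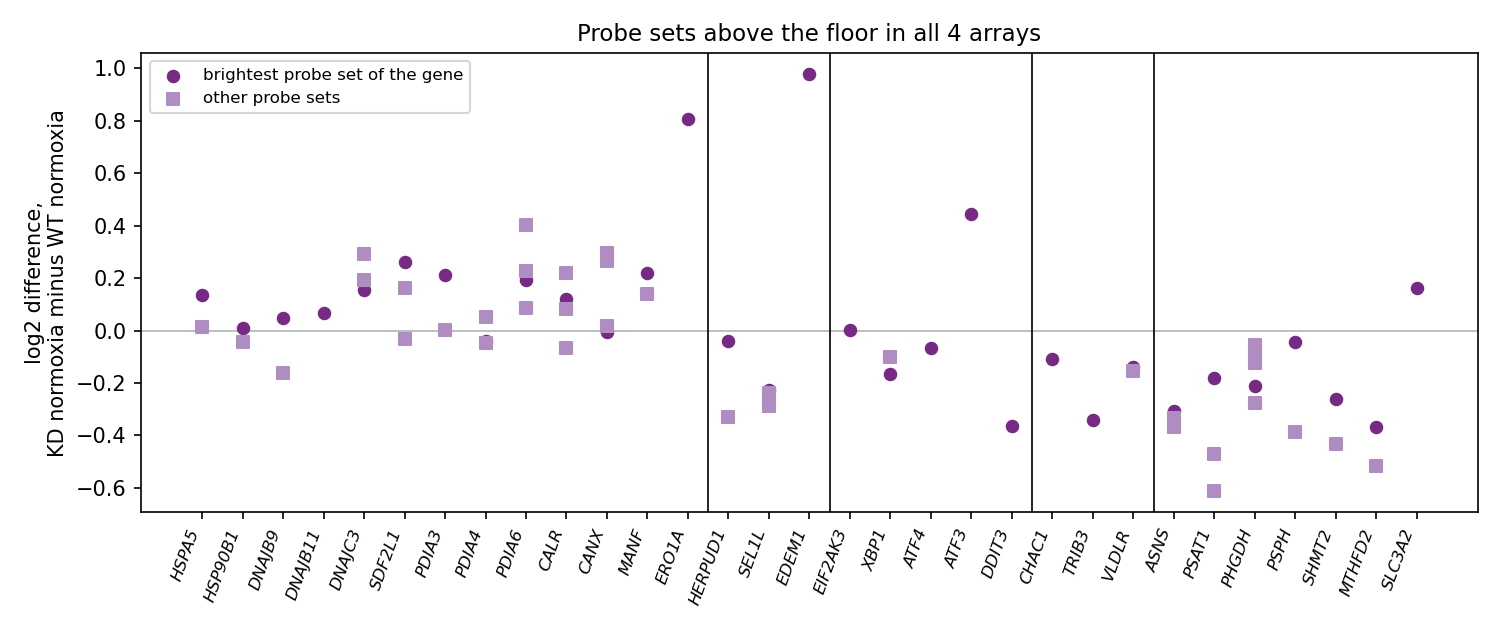
Labelled KD minus WT difference in normoxia, on the log2 scale, for each of the 67 probe sets above the floor in all 4 arrays, with genes along the axis by role and the brightest probe set of each gene marked. Chaperone probe sets lie mostly above 0 and those of the amino acid targets lie below 0 except for SLC3A2.

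Other genes of the same pathways were read from lists of 4 kinds. The aminoacyl-tRNA synthetases charge tRNAs, and many of them are ATF4 targets. Like the amino acid targets, they were lower in KD normoxia than in WT normoxia. In the brightest probe sets the lists differed in other pairs. Of 18 above the floor, 17 were lower in KD normoxia than in WT normoxia (median -0.11), against 51.6% of all genes. For 16 the lowest value was in KD normoxia, against 31% of all genes and 41.3% of the bright genes described above. Hypoxia minus normoxia was higher for 16 of 18 under each label, with medians of 0.21 under KD and 0.13 under WT. Of all genes, 52.5% and 52.4% were higher. Of the amino acid targets, 4 of 7 were higher under the WT label (median 0.01). In KD hypoxia minus WT hypoxia 15 of 18 synthetases were lower (median -0.08), against 52.1% of all genes, while 4 of 7 amino acid targets were higher (median 0.03). That contrast rests on the brightest probe sets. Over the probe sets of the amino acid targets above the floor in all 4 arrays, 13 of 18 were also lower (median -0.10). AARS1, for alanine, read 2959 in KD hypoxia, 3360.3 in WT hypoxia, 2287 in KD normoxia and 2988 in WT normoxia. The exception was WARS1, for tryptophan, which was higher in KD normoxia (1176) than in WT normoxia (966) in its brightest probe set. Its next probe sets gave -0.15 and 0.10 for that pair. In the hypoxia term MARS1 rose by 0.35 (adjusted p = 0.0425) and FARSB by 0.32 (adjusted p = 0.0105), and 0 fell. These are 2 and 0 of 18, against 4.72% and 4.17% of all genes. The MARS1 call was lost in 3 of 10 alternative settings, with a lowest value of 0.19, and the FARSB call in 2 of 10. In the genotype term 0 of 18 were called by limma, against 2.94% of all genes as higher and 2.43% as lower. There were 6 of 18 at an unadjusted p under 0.05 (22.3% of all genes).

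Among 27 other ATF4 and integrated stress response genes above the floor, limma called 3 as higher and 0 as lower for hypoxia. The shares over all genes were 4.72% and 4.17%. For genotype limma called 0 as higher and 1 as lower, against 2.94% and 2.43% of all genes. FGF21, a secreted metabolic hormone, read 837 in KD hypoxia, 532 in WT hypoxia, 443 in KD normoxia and 374 in WT normoxia. It had the same order of extremes as ATF3 and rose in the hypoxia term by 0.69 (SE 0.12, adjusted p = 0.00676). The others that rose, named after their values were seen, were PYCR1, which makes proline (0.29, adjusted p = 0.0354), and CTH, which makes cysteine (0.28, adjusted p = 0.0309). The second PYCR1 probe set gave -0.59. The glutamine transporter SLC1A5 fell in the genotype term by 0.43 (SE 0.08, adjusted p = 0.0233). In the pair of normoxia arrays DDIT4, an mTORC1 inhibitor that is also a known hypoxia target, was higher under KD by 0.72, CCPG1 of ER autophagy by 0.66 and the mitochondrial protease LONP1 by 0.64, and the gluconeogenic enzyme PCK2 was at -0.42. For that pair, other probe sets gave 0.75 for DDIT4, 0.19 and 0.47 for CCPG1, 0.23 for LONP1, and -0.37 and -0.31 for PCK2. The list as a whole had 12 higher and 15 lower in that pair (median -0.05), against 48.4% and 51.6% of all genes.

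Among 43 other ER stress and secretory pathway genes above the floor, limma called 7 as higher and 3 as lower for hypoxia. The shares over all genes were 4.72% and 4.17%. For genotype limma called 4 as higher and 0 as lower, against 2.94% and 2.43% of all genes. ERP44, which retains client proteins of the thiol enzymes in the early secretory pathway, read 1735 in KD hypoxia, 1481 in WT hypoxia, 905 in KD normoxia and 816 in WT normoxia. Both hypoxia arrays were well above both normoxia arrays, also in the second probe set (0.85 and 0.86), and ERP44 rose by 0.89 (SE 0.08, adjusted p = 0.000369). CREB3, an ER-anchored transcription factor, rose by 0.60 (adjusted p = 0.00298) and SEC61B, a subunit of the translocon, by 0.48 (adjusted p = 0.00106). MBTPS1, the protease that cleaves ATF6, rose by 0.72 (adjusted p = 0.00311), but its second probe set was at -0.29. The 3 that fell, named after their values were seen, were FKBP2 (-0.46), MYDGF (-0.41) and SPCS3 (-0.33).

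In the genotype term PDIA5, a disulfide isomerase that acts on ATF6, rose by 0.53 (SE 0.08, adjusted p = 0.00849). It read 2514 in KD hypoxia, 1859 in WT hypoxia, 2571 in KD normoxia and 1664 in WT normoxia, and its 3 probe sets were all higher under the KD label in both pairs. EDEM2, a relative of EDEM1, rose by 0.47 (adjusted p = 0.0287), ARFGAP3 of the Golgi by 0.38 (adjusted p = 0.0397) and KDELR3, a receptor that returns chaperones to the ER and was named after its value was seen, by 0.38 (adjusted p = 0.0381). The second EDEM2 probe set gave -0.03 in hypoxia and 0.23 in normoxia, and the second KDELR3 probe set gave -0.04 and 0.17. With the median over probe sets the calls of EDEM2 (0.10), KDELR3 (0.06) and ARFGAP3 (0.35) were lost. UBE2J1, a ubiquitin-conjugating enzyme of ER-associated degradation, was higher under the KD label by 0.53 in normoxia in its brightest probe set and at -0.21 and -0.09 in its others. PPP1R15A, which reverses eIF2 phosphorylation and is induced by ATF4, was lower in KD normoxia (1869.6, against 2687 in WT normoxia), as DDIT3 and TRIB3 were.

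**Figure D5:**
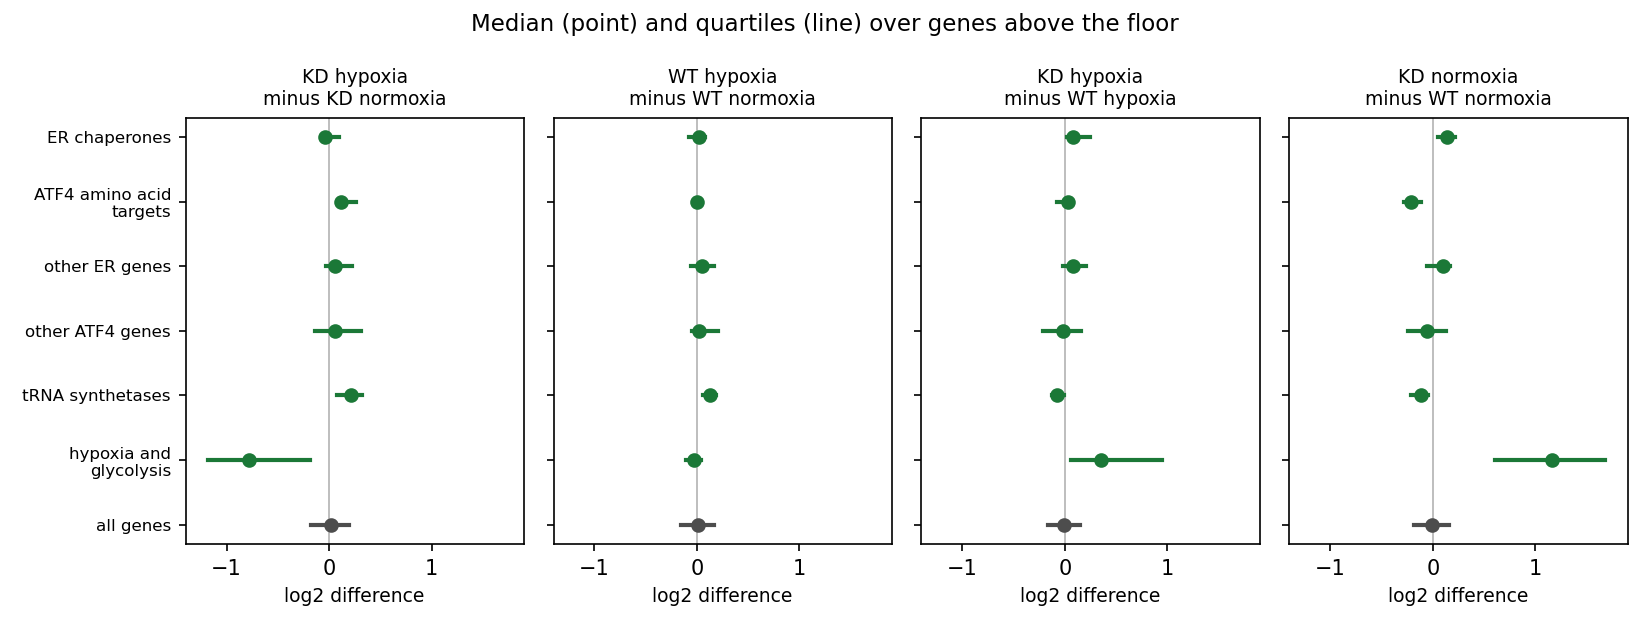
Median (point) and quartiles (line) of the log2 difference over the genes above the floor of each list, for the 4 pairs of arrays, with all 9834 genes below. The hypoxia and glycolysis list has a median of 1.16 in KD normoxia minus WT normoxia, while the medians of the 5 stress and synthetase lists drawn lie between -0.21 and 0.21 in the 4 pairs.

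The response to labelled hypoxia under the KD label was set against that under the WT label by their difference, which has no residual degree of freedom and was not tested. At 1.5-fold 0 of 31 stress genes had a higher response under the KD label (3.44% of all genes), and 2 of 31 had a lower one, ERO1A and EDEM1 at -0.63 each (4.11% of all genes). The amino acid targets had a median of 0.19, with 6 of 7 above 0, against 51.0% of all genes. The chaperones and folding enzymes had a median of 0.01. TRIB3 (0.49), DDIT3 (0.46) and MTHFD2 (0.40) had the highest values of the 31. The array labelled KD normoxia enters each of these values and also the labelled KD minus WT difference in normoxia, so they are not separate evidence.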

How the data were processed

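Per the labels' protocols, RNA was extracted with an RNeasy kit and 100 ng of it was turned into biotinylated cRNA (3' IVT Express kit). The authors deposited 1 intensity per probe set and array on a linear scale. Which software made these intensities, and how it scaled them, is not given in the sources used. The deposited intensities have nearly equal means once the lowest and highest 2% are left out, 310.3 to 315 per array, and between 1065 and 1129 values per array are listed at 1, with no level. Symbols came from the platform annotation: 29254 probe sets had 1 symbol, 439 had several and 13231 had none. Of the 82 probe sets described, 78 were found by gene ID in a RefSeq gene table, with the same symbol. No genome build was used.

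Values were turned to log2(intensity + 16). A gene was read from its probe set with the highest mean, and kept if its highest array reached the median of all log2 values, 5.96. The additive model of genotype and oxygen was fitted over the 9834 genes kept by lmFit and eBayes of limma 3.58.1 under R 4.3.3, with a variance trend over intensity (prior of 8.10 degrees of freedom). Tests were two-sided, and p-values were adjusted by Benjamini-Hochberg over all of these genes, at 0.05. Tables were handled with Python 3.11.15. The limma fit was tested on simulated data with known changes in the hypoxia term. Pairs of arrays, and the difference between 2 responses, are values without a test. Precision is limited by the number of arrays.

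The 40 genes and the other lists were chosen with earlier results of these data known. Any of the 40 could be named. Of each other list, the 4 genes with the largest absolute value in a described comparison were named, besides HIF1A, VEGFA and, after their values were seen, the genes behind counts of 5 or fewer calls. The alternatives were the median over probe sets, quantile scaling, cyclic loess, median centring, no floor, a floor at the 75th percentile, pseudocounts of 1 and 64, every probe set in the model, and no intensity trend. Nothing could be left out within a group, since each has 1 array.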

Additional observations from a re-analysis of the deposited data

Results flagged for a closer look

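Of 75 genes named or open to naming, 33 had opposite signs of a labelled difference. For 19 of them the response to labelled hypoxia differed in sign between KD and WT cells, and for 17 the labelled KD minus WT difference differed in sign between hypoxia and normoxia. With 1 array per group none of this was tested, and near 0 opposite signs come easily. The share of all genes with opposite signs was not counted, so these counts cannot be set against it. Some of the 75 were also named for their large values. In 4 of the 33, EDEM1, TRIB3, CCPG1 and ADM, both values were at least 0.2 from 0. The values that follow are the response to labelled hypoxia in KD cells minus that in WT cells, on the log2 scale. Signs and values come from each gene's brightest probe set, and other probe sets can differ. For HSPA5 the second probe set was higher in hypoxia under both labels.

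Opposite responses to hypoxia alone were seen in HSPA5 (-0.0602), PDIA6 (-0.12), EDEM1 (-0.63), CHAC1 (-0.13), PSAT1 (0.0621) and SHMT2 (0.19) among the 40 stress genes. Opposite KD minus WT differences alone were seen in DNAJB9 (-0.12), DNAJB11 (-0.0755), CANX (0.0501), HERPUD1 (0.22), XBP1 (0.19), VLDLR (0.18), PHGDH (0.24), PSPH (0.10) and MTHFD2 (0.40). EIF2AK3 (-0.14), DDIT3 (0.46) and TRIB3 (0.49) had both. HYOU1 (0.79) and SYVN1 (0.29) lay below the floor in every array, so the size of their values is not measured.

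In the other lists, opposite responses to hypoxia were seen in PDIA5 (-0.19), UBE2J1 (-0.31), PPP1R15A (0.38), EDEM2 (-0.0677), ARFGAP3 (0.20), CCPG1 (-0.58) and the synthetase VARS1 (-0.28). The hypoxia genes ADM (-1.87) and ANKRD37 (-0.44) had them too. Opposite KD minus WT differences were seen in DDIT4 (-0.77), LONP1 (-0.65), WARS1 (-0.31) and PYCR1 (0.24).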

How the results depend on the processing

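No paired analysis was possible because each group has 1 array and the labels give no replicate numbers. Cyclic loess was chosen after seeing the data. No scaling moved the median of all genes beyond 0.03 in any pair. Counts of stress genes called by limma are few and moved with most settings. For hypoxia, 1 became 4 with quantile scaling, 3 with the median over probe sets or cyclic loess, 2 with a pseudocount of 64, and 0 without the floor, with the 75th percentile floor or without the intensity trend. For genotype, 2 became 9 with quantile scaling, 7 with the median over probe sets, 5 with median centring, cyclic loess, every probe set or a pseudocount of 64, 4 with a pseudocount of 1, 1 with the higher floor, and 0 without the floor or the trend. Over all genes, the 874 hypoxia calls became 1517 with quantile scaling, 1653 probe sets, 77 without the floor and 7 without the trend. The 528 genotype calls became 1311, 1435, 0 and 0 in the same settings, and 932 with cyclic loess. Across these 11 settings ERO1A and EDEM1 rose in the genotype term in 7 each and MANF in 5, and ASNS and PSAT1 fell in 2 each and SEL1L and SHMT2 in 1 each. In the hypoxia term SEL1L fell in 4 and ERO1A in 3.

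The 1.5-fold counts of stress genes moved by single genes. For KD hypoxia minus KD normoxia, 2 became 1 with quantile scaling, cyclic loess, the higher floor or a pseudocount of 64. For WT hypoxia minus WT normoxia, 0 became 2 without the floor. For KD hypoxia minus WT hypoxia, 1 became 2 without the floor and 0 with the higher floor or a pseudocount of 64. For KD normoxia minus WT normoxia, 2 became 1 with the higher floor, and for the difference of the responses 2 became 1 with the higher floor or a pseudocount of 64. The median of the ATF4 amino acid targets was -0.34 in normoxia and -0.12 in hypoxia for labelled KD minus WT with the median over probe sets, against -0.21 and 0.03. The hypoxia term of PYCR1 turned to -0.15 with the median over probe sets. Of 315 repeats for single genes, 248 kept direction and call, 62 lost the call, 4 moved and 1, that of PYCR1, turned sign, and of 224 for counts and medians 185 held. The causes were not tested. Genes at or below the floor limit what can be measured.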
